A study of Mus musculus with 6 samples.

Results

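The 34 interferon-stimulated genes described here are genes that cells are known to switch on when interferon reaches them, and they were picked by name out of the 54532 named genes of the count table. All 34 were found, and 33 of them passed the expression filter that left 15225 genes for testing. RNA was sequenced from mouse kidney. The first group was wild-type (WT) mice and the second was mice labelled Lpar3-/-, which by that label lack lysophosphatidic acid receptor 3. Both groups had been kept at 8% O2 for 12 h in a chamber at normal pressure before the kidneys were taken, so the oxygen treatment was shared and no kidney kept in normal air was analysed here. Each group had 3 libraries, and the labels do not tie each to an animal of its own. P-values here thus reflect only the variation among these libraries, part of which may be technical. Age, sex, strain background and the way the allele was made were not given in the sources used here.

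The Lpar3 transcript itself did not separate the groups. Its counts were 645, 634 and 577 in WT replicates 1, 2 and 3 and 672, 592 and 580 in the libraries labelled Lpar3-/-, a log2 fold change of 0.00 (SE 0.08, edgeR adjusted p = 0.997). Counts over the whole gene cannot show whether a short stretch is missing, and the label is used below as the name of the group. Over named genes the libraries held 15953794 to 17940438 counts. Proximal tubule genes, which mark the main cell type of kidney cortex, were abundant in every library, with 10 of 10 listed genes tested and a summed level of 21870 to 25740 CPM (counts scaled to a common library total).

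Interferons are secreted proteins that warn cells of infection. Type I interferons (alpha and beta) bind the receptor made of Ifnar1 and Ifnar2, and the kinases Jak1 and Tyk2 then activate a complex that holds Stat2 and Irf9 and binds DNA at the interferon-stimulated response element (ISRE). Type II interferon (gamma) acts through Ifngr1 and Ifngr2 and is read at the gamma-activated site (GAS). In kidney, tubule cells, endothelium and resident macrophages can all respond, and a low level of these transcripts is usual without infection.

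The promoters of the members were searched for both elements, although the members were picked by name and not by these sequences. RefSeq promoter windows (GRCm38.p6, 250 bases before to 50 after the start) were at hand for 24 of the 34 members. The letters GAAA, then any 2 bases, then GAAA, read on both strands and called ISRE-like here, occurred in the windows of 15 of these 24 members (62.5%). Counted by window, since some genes have more than 1, it was in 15 of 28 (53.6%), against 3.44% of all 32851 windows. The letters TTC, then any 3 bases, then GAA, also read on both strands and called GAS-like, occurred in 8 of 24 members (33.3%) and 8 of 28 windows (28.6%), against 8.30% of all windows. Bst2, Gbp7, Igtp, Irgm2 and Oas1a had both, and Dtx3l, Ifi44, Irf7, Irf9, Oasl2 and Xaf1 had neither. A match is a description of letters, not a measured binding site, and overlapping matches were counted once per window.

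Stretches from 8 of these promoters are printed to show how the matches sit in antiviral, GTPase and transcription factor genes. They were chosen after the matches and the expression values had been seen. Each is written 5′ to 3′ on the gene's own strand in lower case, with the matched letters in capitals.
Ifit1, chr19:34640760-34640821, plus strand: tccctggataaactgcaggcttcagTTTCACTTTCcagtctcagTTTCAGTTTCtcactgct
Rsad2, chr12:26456555-26456597, minus strand: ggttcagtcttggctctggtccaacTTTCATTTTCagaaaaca
Isg15, chr4:156200867-156200921, minus strand: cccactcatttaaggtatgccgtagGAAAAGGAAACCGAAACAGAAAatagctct
Gbp2, chr3:142620579-142620621, plus strand: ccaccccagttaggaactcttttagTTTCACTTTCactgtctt
Gbp3, chr3:142559974-142560022, plus strand: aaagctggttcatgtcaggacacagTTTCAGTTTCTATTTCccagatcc
Igtp, chr11:58199486-58199539, plus strand: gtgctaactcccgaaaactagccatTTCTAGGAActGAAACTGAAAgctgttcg
Irgm2, chr11:58214877-58214930, plus strand: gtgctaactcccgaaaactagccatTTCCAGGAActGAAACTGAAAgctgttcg
Irf1, chr11:53769899-53769940, plus strand: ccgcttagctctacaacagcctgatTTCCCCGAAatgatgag
In Igtp and Irgm2 a GAS-like match came just before an ISRE-like match, and the stretches of these neighbouring genes were nearly identical. In Isg15 and Gbp3 several ISRE-like matches overlapped. The Irf1 stretch held a GAS-like match and no ISRE-like one.

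**Figure D1:**
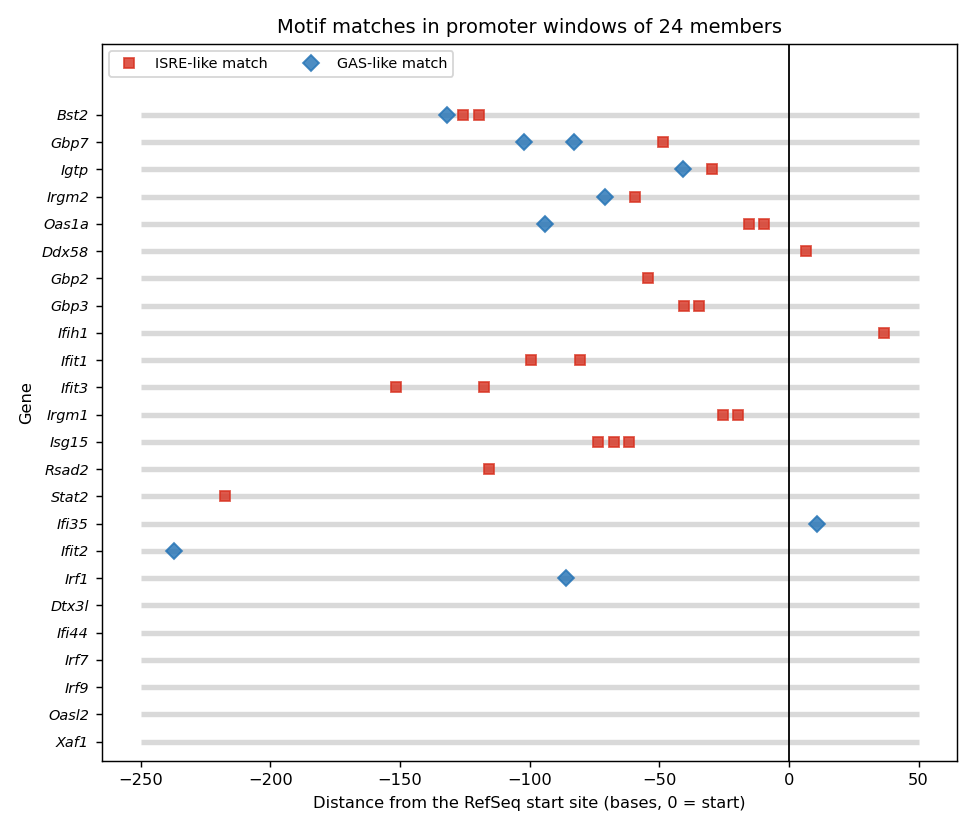
Position of ISRE-like and GAS-like letter matches in the promoter windows of the 24 members that have one, in bases from the RefSeq start (x axis), 1 row per gene with grey bars for the windows. Of these rows, 15 carry an ISRE-like mark, which lies after the start in Ddx58 and Ifih1, and the rows of Bst2, Gbp7, Igtp, Irgm2 and Oas1a carry both kinds.

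Between the groups, the interferon-stimulated genes leaned lower in the libraries labelled Lpar3-/-, but no single gene passed the test. Of the 33 tested, 26 (78.8%) had a log2 fold change (Lpar3-/- over WT) below 0, against 51.1% of all genes tested, and the median was -0.20, against 0.00 over all genes. With edgeR's quasi-likelihood test, 0 of 33 had an adjusted p below 0.05, the threshold for a call, against 0.374% of all genes (57 of 15225). The lowest adjusted p among members was 0.381, for Ifit2. At an unadjusted p below 0.05 there were 5 of 33 (15.2%), against 9.18% of all genes. Ifit2 was the 1 with a higher level, where 3.97% of all genes were higher. Bst2, Irf7, Gbp3 and Irgm1 were on the lower side and made 12.1% of the members, where 5.21% of all genes were lower. DESeq2 and limma-voom also called 0 members, with 6 and 5 at an unadjusted p below 0.05. When genes with few counts were kept in the edgeR fit, 3 members were called, Gbp3 (adjusted p = 0.000409), Irgm1 (0.0197) and Ifit2 (0.0311), while calls over all genes rose to 520. The groups did not overlap for 2 of 33 members (6.06%), against 13.7% of all genes. These were Bst2 and Irgm1, with every WT library above, as in 7.12% of all genes. For 0 members was every WT library below, as in 6.58% of all genes.

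The lean came mainly from 2 of the 6 libraries. WT replicate 2 was the highest of the 6 for 20 of 33 members (60.6%), against 21.9% of all genes tested. Lpar3-/- replicate 1 was the lowest for 19 of 33 (57.6%), against 15.6% of all genes. Both held for 13 members (39.4%), against 4.33% of all genes. On average over members, log2 CPM stood above the gene's mean over the libraries by 0.33 in WT replicate 2 and stood at -0.32 in Lpar3-/- replicate 1. The other 4 libraries stood at 0.03 (WT replicate 1), -0.07 (WT replicate 3), -0.03 (Lpar3-/- replicate 2) and 0.07 (Lpar3-/- replicate 3). The Lpar3-/- replicate 3 average was therefore above that of 2 of the 3 WT libraries.

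The summed level of the 33 tested members and Mx1 gave the same picture. It was 382.8, 487.2 and 375.3 CPM in WT replicates 1, 2 and 3 and 322.5, 385.4 and 410.4 CPM in Lpar3-/- replicates 1, 2 and 3. The groups overlapped, since Lpar3-/- replicates 2 and 3 were both above WT replicates 1 and 3. WT replicate 2 was above the mean of the other WT libraries for 30 of 33 members, by a median of 0.34 in log2 CPM, and for 7747 of all 15225 genes. Lpar3-/- replicate 1 was below the mean of its own group's other libraries for 31 of 33, with a median of -0.27, and for 7680 of all genes. The difference between the group means was larger than the range within either group for 1 of 33 members, Bst2, and for 1081 of all 15225 genes.

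**Figure D2:**
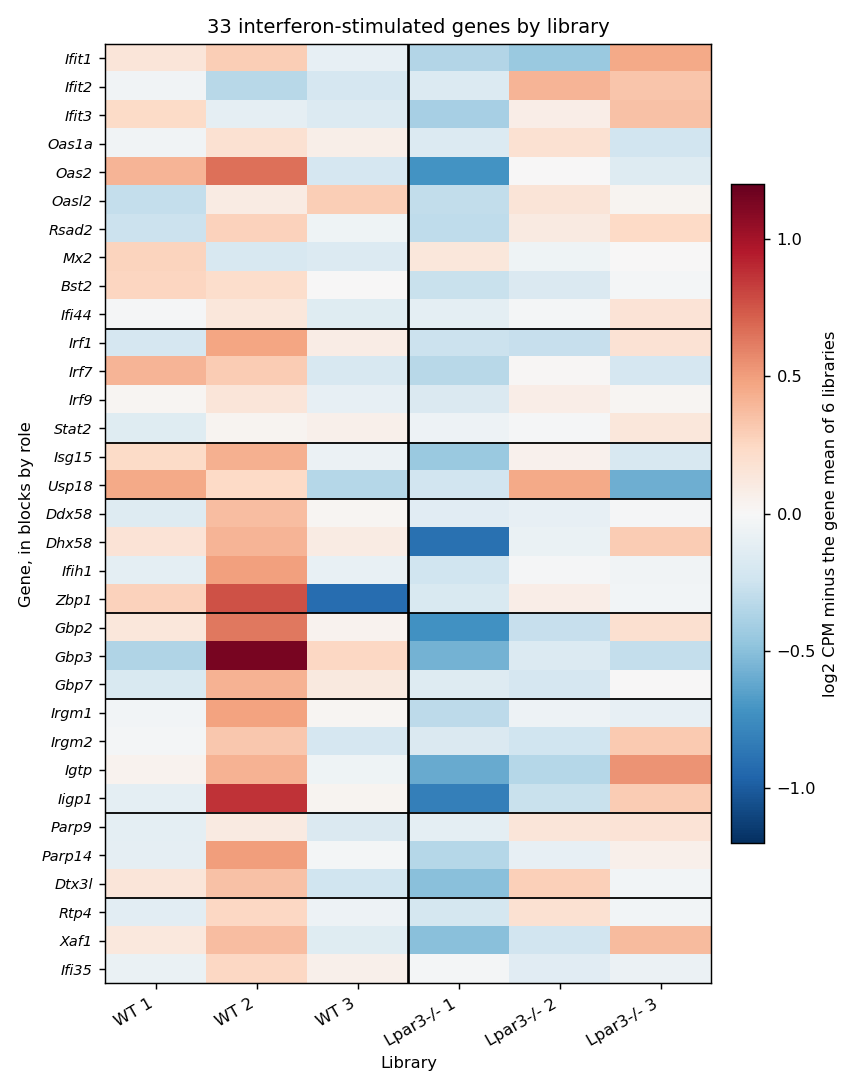
Log2 CPM of each tested interferon-stimulated gene minus its mean over the 6 libraries (colour scale), with genes in rows by role and libraries in columns. The WT replicate 2 column is mostly above the gene mean (30 of 33 genes) and the Lpar3-/- replicate 1 column mostly below it (32 of 33).

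Leaving out single libraries moved the median accordingly. Without WT replicate 2 it was -0.05, with 23 of 33 members below 0 and 2 at an unadjusted p below 0.05 (Bst2 and Ifit2). Without Lpar3-/- replicate 1 it was -0.10, with 21 below 0 and 1 at an unadjusted p below 0.05 (Ifit2). Leaving out any other library kept it between -0.28 and -0.17. Without both of the 2 libraries, an alternative added after the values were seen, the median was 0.05 with 20 members above 0 and 13 below. Because the highest WT library and the lowest Lpar3-/- library were the ones removed, that value had to move upward, and its sign carries no weight of its own. No member was called in any of these fits.

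**Figure D3:**
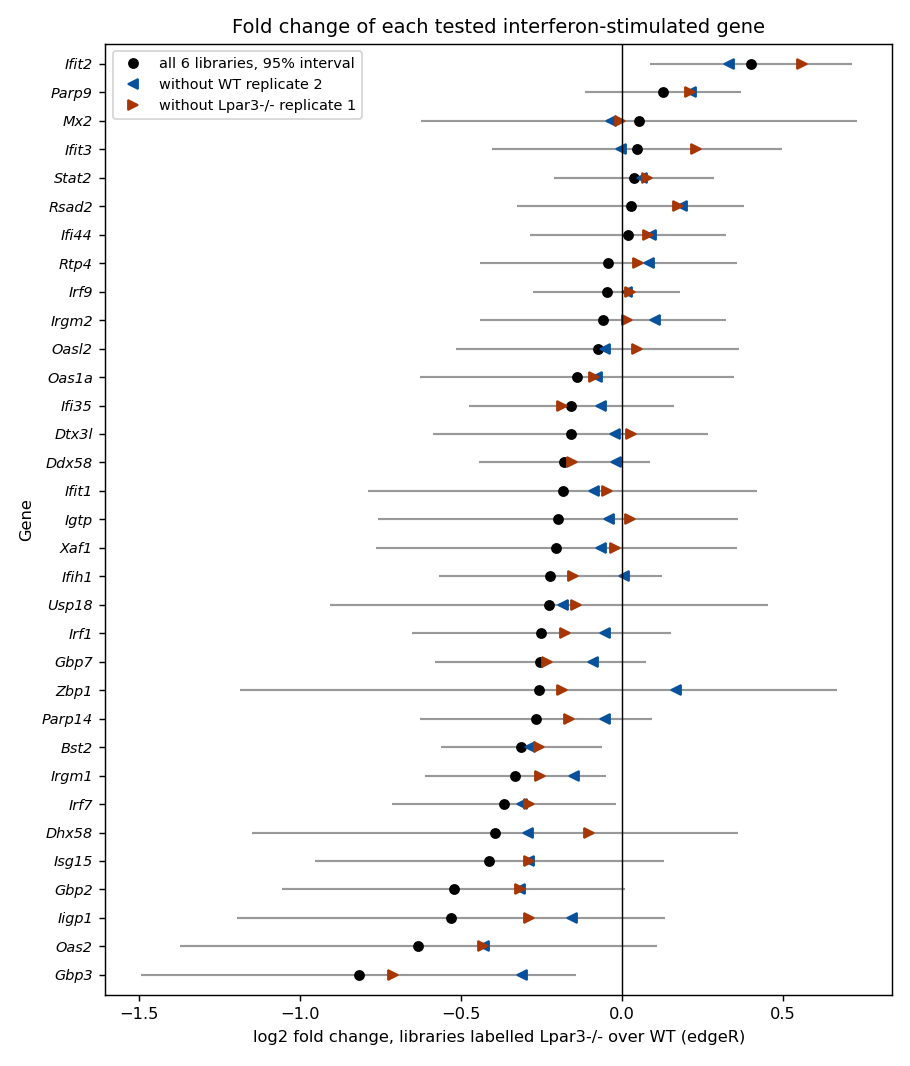
Log2 fold change (x axis, edgeR, Lpar3-/- over WT) of each tested interferon-stimulated gene with its 95% interval, and the same value without WT replicate 2 (left-pointing triangles) or without Lpar3-/- replicate 1 (right-pointing triangles). Most points lie below 0, and for genes such as Gbp3 and Iigp1 the triangles lie nearer to 0 than the point.

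The ligands that would start the pathway were at or near 0. None of 21 interferon genes listed was tested, and 17 had no count in any library, among them Ifnb1 and Ifng. A count of 0 in a library allows up to 3 counts, for counting error only. The receptors were expressed in every library, and 0 of 6 were called or had an unadjusted p below 0.05. Ifnar1 had 51.9 ± 0.432 CPM in WT and 53.1 ± 1.79 CPM in the libraries labelled Lpar3-/- (SD, n = 3 in each group here and below). Ifngr1 had 38.8 ± 4.03 and 35.9 ± 2.43 CPM. Ifnar2, Ifngr2, Ifnlr1 and Il10rb had log2 fold changes of -0.09, -0.17, 0.03 and 0.14.

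Among the receptor kinases and STAT proteins, which carry the signal to the nucleus, 0 of 4 were called. Stat3, which mainly answers cytokines of the interleukin 6 family, had 107 ± 8.13 and 90.2 ± 3.89 CPM (log2 fold change -0.25, edgeR adjusted p = 0.270). Of 12 inhibitors of the pathway 0 were called. At an unadjusted p below 0.05, where 5.21% of all genes were lower and 3.97% higher, 1 was lower and 1 higher. These were Socs3, a feedback inhibitor, with a log2 fold change of -0.95 (adjusted p = 0.358), and Pias1, with 0.22 (adjusted p = 0.405). Socs3 stood at 2.31, 6.09 and 5.02 CPM in WT and 2.22, 2.02 and 2.66 CPM in the other group, so WT replicate 1 lay among the latter. Without WT replicate 1, Socs3 was called (edgeR adjusted p = 0.0378), as it was with no expression filter (0.0157). It was not called with DESeq2 (adjusted p = 0.204) or limma-voom (0.545).

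The 4 transcription factors among the members form the core of the response. Irf7, which amplifies type I interferon production, had 19.9, 18.5 and 13.1 CPM in WT replicates 1, 2 and 3 and 11.9, 15.1 and 13.1 CPM in Lpar3-/- replicates 1, 2 and 3. WT replicate 3 was level with Lpar3-/- replicate 3. The log2 fold change was -0.37 (SE 0.16, unadjusted p = 0.0401, edgeR adjusted p = 0.514). Irf9, the DNA-binding partner of Stat2, had 23.1, 25.1 and 21.2 CPM in WT and 20.1, 23.99 and 23.1 CPM in the libraries labelled Lpar3-/-. Its groups overlapped throughout, with a log2 fold change of -0.05. Irf1, which gamma interferon induces, had -0.25, and Stat2 had 0.04.

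The nucleic acid sensors showed the tilt to WT replicate 2 in 4 of 4 genes. Ddx58, which encodes the RNA sensor RIG-I, had 25.0, 36.0 and 28.2 CPM in WT and 25.3, 25.9 and 27.5 CPM in the libraries labelled Lpar3-/-. Apart from WT replicate 2, its libraries lay within a narrow band. Dhx58, which encodes a RIG-I-like regulator, had 2.03, 2.43 and 1.94 CPM in WT and 0.911, 1.70 and 2.25 CPM in the other group. Here Lpar3-/- replicate 1 stood lowest and Lpar3-/- replicate 3 was above 2 WT libraries. The log2 fold change was -0.39, and -0.10 without Lpar3-/- replicate 1. Zbp1, a sensor of Z-form nucleic acid that can trigger cell death, had 1.52, 2.19 and 0.605 CPM in WT and 1.08, 1.32 and 1.21 CPM in the other group. WT replicate 3 was its lowest library and WT replicate 2 its highest, so its spread lay within WT. Ifih1, another sensor of double-stranded RNA, had a log2 fold change of -0.22, and the role's range was -0.39 to -0.18.

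The antiviral effectors leaned least, with 5 of 10 tested below 0 and a median of -0.03. Ifit2, which binds viral RNA, was the member with the lowest p and went the opposite way to most. It had 20.8, 17.0 and 18.6 CPM in WT replicates 1, 2 and 3 and 19.1, 28.4 and 26.9 CPM in Lpar3-/- replicates 1, 2 and 3. WT replicate 2 was its lowest library, and Lpar3-/- replicate 1 lay within the WT range. The log2 fold change was 0.40 (SE 0.14, unadjusted p = 0.0168, edgeR adjusted p = 0.381), and the adjusted p was 0.155 without Lpar3-/- replicate 1. Without Lpar3-/- replicate 2 the edgeR adjusted p was 0.811 (unadjusted 0.0905), and without Lpar3-/- replicate 3 it was 0.797 (unadjusted 0.0657). Its neighbours on chromosome 19, Ifit1 and Ifit3, had -0.18 and 0.05.

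Bst2 encodes tetherin, a membrane protein that holds budding virus at the cell surface. It had 20.7, 20.1 and 17.4 CPM in WT and 14.4, 15.4 and 17.0 CPM in the libraries labelled Lpar3-/-. Every WT library was above every other one, with WT replicate 3 and Lpar3-/- replicate 3 close together. The log2 fold change was -0.31 (SE 0.11, unadjusted p = 0.0182, edgeR adjusted p = 0.391). WT replicate 2 was not its highest library, and Bst2 remained at an unadjusted p below 0.05 without that library. It did not without WT replicate 1 (edgeR unadjusted p = 0.0647), Lpar3-/- replicate 1 (0.0730) or Lpar3-/- replicate 2 (0.0506).

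The oligoadenylate synthetases make a messenger that activates RNase L. Oas2 had 2.37, 2.84 and 1.51 CPM in WT and 1.03, 1.76 and 1.56 CPM in the libraries labelled Lpar3-/-. WT replicate 3 fell among the latter, and the log2 fold change was -0.63 (SE 0.34). Oas1a had -0.14 and Oasl2 -0.08. Rsad2, which encodes viperin, had 0.03, Ifi44 0.02 and Mx2 0.05. Mx1, a dynamin-like GTPase that blocks influenza virus, did not pass the expression filter, with 12, 6 and 3 counts in WT and 9, 3 and 7 in the other group.

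Isg15, a ubiquitin-like protein joined to other proteins, and Usp18, the protease that removes it and damps receptor signalling, were both below 0. Usp18 had 4.29, 3.67 and 2.42 CPM in WT and 2.62, 4.28 and 2.02 CPM in the libraries labelled Lpar3-/-. Lpar3-/- replicate 2 was level with the highest WT library, and the log2 fold change was -0.23 (SE 0.31). It ran from -0.58 without Lpar3-/- replicate 2 to -0.01 without Lpar3-/- replicate 3, and was -0.04 without WT replicate 1. Isg15 had a log2 fold change of -0.41 (SE 0.25).

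The guanylate-binding proteins and immunity-related GTPases, which attack the vacuoles of intracellular microbes and answer gamma interferon strongly, were below 0 in 7 of 7 genes, as were the 4 sensors and the ISG15 pair. Their median log2 fold changes were -0.52 and -0.26, beside -0.32 for the ISG15 pair. Gbp3 (chromosome 3, 142560026 to 142573209, GRCm38, plus strand) had 5.64, 16.2 and 8.71 CPM in WT and 4.90, 6.49 and 5.95 CPM in the libraries labelled Lpar3-/-. WT replicate 2 stood far above the rest, and WT replicate 1 lay within the other group. The log2 fold change was -0.82 (SE 0.31, unadjusted p = 0.0216, edgeR adjusted p = 0.413), and it was -0.31 without WT replicate 2.

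Gbp2 and Gbp7 lie beside Gbp3 on chromosome 3. Gbp2 had 6.72, 9.53 and 6.29 CPM in WT and 3.64, 5.04 and 6.99 CPM in the other group, and Lpar3-/- replicate 3 was above 2 WT libraries. Its log2 fold change was -0.52 (SE 0.24, edgeR adjusted p = 0.557), and it was -0.32 without WT replicate 2 and also -0.32 without Lpar3-/- replicate 1. Gbp7 had 12.6, 19.2 and 15.6 CPM in WT and 12.9, 12.5 and 14.4 CPM in the other group, and again WT replicate 1 lay among the libraries labelled Lpar3-/-. Its log2 fold change was -0.25, and -0.09 without WT replicate 2. Gbp7 shares 637 bases of exon on the same strand with the processed pseudogene Gm43802, so reads there cannot be given to Gbp7 with certainty.

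Irgm1, a regulator of the other immunity-related GTPases, had 43.9, 62.8 and 45.7 CPM in WT and 36.1, 43.2 and 42.0 CPM in the libraries labelled Lpar3-/-. WT was above in every library, though WT replicate 1 and Lpar3-/- replicate 2 nearly met. The log2 fold change was -0.33 (SE 0.13, unadjusted p = 0.0244, edgeR adjusted p = 0.431), and -0.15 without WT replicate 2 (unadjusted p = 0.135). Iigp1 had 6.04, 12.1 and 6.71 CPM in WT and 3.64, 5.42 and 8.09 CPM in the other group. Lpar3-/- replicate 3 exceeded 2 WT libraries there, and the log2 fold change was -0.53 (SE 0.30), and -0.16 without WT replicate 2. Igtp had 10.6, 13.8 and 9.92 CPM in WT and 6.72, 8.12 and 15.1 CPM in the other group. Its highest library was Lpar3-/- replicate 3, and its log2 fold change was -0.20, and 0.02 without Lpar3-/- replicate 1. Igtp and Irgm2 share 162 bases of exon on the same strand, so reads there cannot be given to one of them with certainty.

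**Figure D4:**
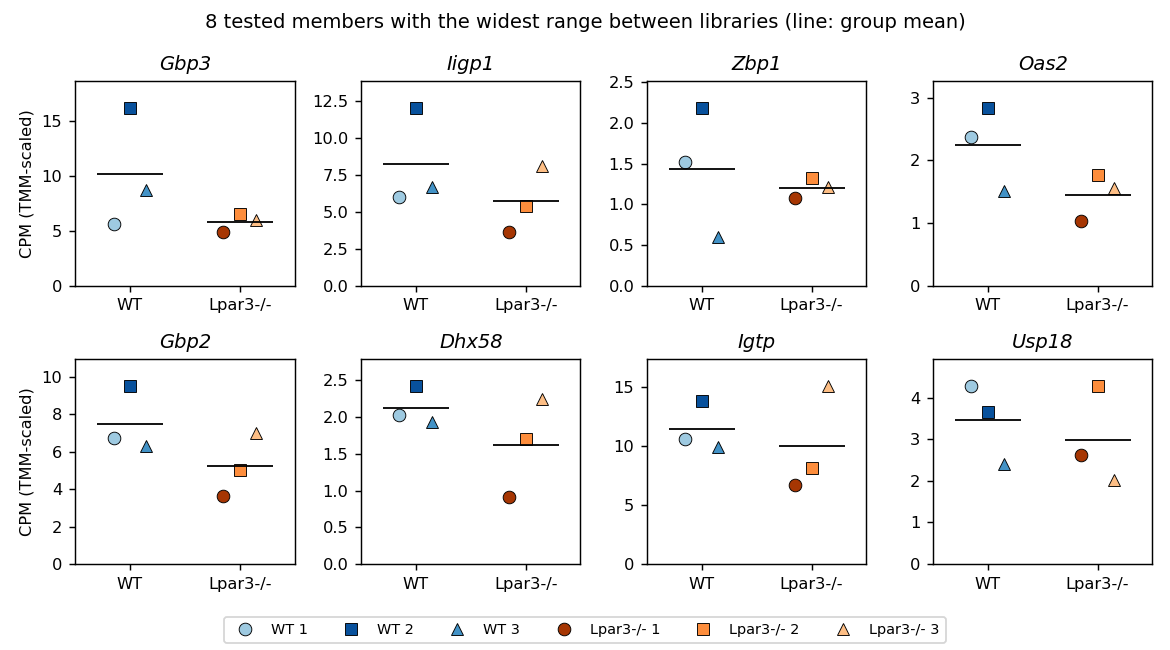
Level in CPM (y axis, from 0) in each library of the 8 tested interferon-stimulated genes with the widest range of log2 CPM over the 6 libraries, with points for libraries and a line for each group mean. WT replicate 2 is highest for Gbp3 at 16.2 CPM and for Iigp1 at 12.1 CPM, while Igtp is highest in Lpar3-/- replicate 3 at 15.1 CPM.

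Parp9 and Dtx3l form a complex that joins ADP-ribosylation to ubiquitin transfer, and Parp14 is a related enzyme. Parp9 had 21.6, 25.1 and 20.6 CPM in WT and 21.5, 25.8 and 26.2 CPM in the libraries labelled Lpar3-/-, with wide overlap and a log2 fold change of 0.13. Dtx3l had -0.16 and Parp14 -0.27. Parp9 and Dtx3l share 458 bases of exon on opposite strands, and whether the counting used strand was not given in the sources used here. The remaining members, Rtp4, Xaf1 and Ifi35, ran from -0.20 to -0.04. Exon bases on the same strand are also shared by Rtp4 (296 with Gm45338), Irf9 (123 with Rnf31) and Parp14 (110 with Gm49730).

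Levels were compared between genes per length, as the authors' deposited FPKM averaged over the 6 libraries. Bst2 was highest at 19.2 FPKM, ahead of Irgm1 at 7.79, Ifit2 at 5.51 and Igtp at 5.26. The lowest were Mx2 at 0.398, Zbp1 at 0.372 and Mx1 at 0.101.

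The tilt to WT replicate 2 differed between roles. That library's mean deviation from the gene mean in log2 CPM was 0.73 for the guanylate-binding proteins, 0.52 for the immunity-related GTPases and 0.51 for the sensors. It was 0.24 for the transcription factors and 0.12 for the antiviral effectors, of which it was highest in 3 of 10. For Lpar3-/- replicate 1 the values were -0.48 for both GTPase families, -0.36 for the sensors, -0.21 for the transcription factors and -0.26 for the effectors. No test of these differences between roles was made.

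Other lists of the pathway, with no member in them apart from 3 in the guanylate-binding family, were read in the same way. Upstream nucleic acid sensing had 9 of 15 tested genes below 0, a median of -0.12 and 0 called. Nucleic acid clearance had 4 of 7 below 0, a median of -0.02 and 0 called, and its lowest p was that of Dnase1, a secreted DNA-cutting enzyme, with a log2 fold change of 0.24 (edgeR adjusted p = 0.371). WT replicate 2 was not the highest library on average for the clearance list (mean deviation -0.01), nor for the pathway inhibitors (0.09, against 0.11 in WT replicate 3). It was for the sensing list (0.19) and for the 4 lists given next.

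Of 50 other interferon-stimulated genes tested, 38 were below 0, with a median of -0.21. None was called, and 5 were lower and 2 higher at an unadjusted p below 0.05. Over all genes tested, 51.1% were below 0, and 5.21% were lower and 3.97% higher at that unadjusted p. Ifi27l2a, a small mitochondrial interferon-induced protein, had the lowest p. It had 15.2, 14.1 and 7.38 CPM in WT and 4.39, 6.74 and 4.68 CPM in the other group. Every WT library was higher, with a log2 fold change of -1.22 (SE 0.26, edgeR adjusted p = 0.0768). It was called with DESeq2 (adjusted p = 0.000391), and with edgeR without WT replicate 3 (adjusted p = 0.0140) or with no expression filter (adjusted p = 2.73e-10). It was not called with limma-voom (adjusted p = 0.160) or with edgeR under a stricter filter (0.0818). Nor was it with limma on log2(FPKM + 1) (adjusted p = 0.368) or log2(FPKM + 0.1) (0.333).

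Antigen presentation genes that gamma interferon raises leaned further, with 17 of 19 below 0 and a median of -0.37. None was called, and 7 were lower at an unadjusted p below 0.05, where 5.21% of all genes were lower. H2-D1, a class I molecule, had 275 ± 41.4 CPM in WT and 218 ± 7.15 CPM in the libraries labelled Lpar3-/- (edgeR adjusted p = 0.266). H2-Eb1, a class II molecule of antigen-presenting cells, had 23.5, 51.2 and 21.4 CPM in WT and 17.8, 17.6 and 20.6 CPM in the other group (edgeR adjusted p = 0.350). For H2-Eb1, WT replicate 2 was far above the other libraries. With no expression filter, edgeR called H2-D1, Psmb8, H2-Eb1 and B2m of this list, with adjusted p of 0.00528, 0.0127, 6.2e-10 and 1.41e-06. Neither DESeq2 nor limma-voom called any of them. In the same order, the adjusted p were 0.0616, 0.129, 0.706 and 0.725 with DESeq2. With limma-voom they were 0.288, 0.312, 0.512 and 0.431. The guanylate-binding family as a whole had 10 of 10 tested genes below 0 and a median of -0.52, with 0 called. Its genes Gbp4, Gbp5, Gbp6, Gbp8, Gbp9 and Gbp10 were also counted among the other interferon-stimulated genes above. NF-kB response genes had 9 of 11 below 0, a median of -0.26 and 0 called. At an unadjusted p below 0.05, 3 were lower and 0 higher, where 5.21% and 3.97% of all genes were. Every WT library was above for 2 of 11, as in 7.12% of all genes. Relb had the lowest p (log2 fold change -0.68, edgeR adjusted p = 0.165). Relb was called with no expression filter (edgeR adjusted p = 0.0103), but not with DESeq2 (adjusted p = 0.0707) or limma-voom (0.208). Vcam1, an adhesion molecule, had 7.45, 46.0 and 11.4 CPM in WT and 9.06, 8.44 and 7.17 CPM in the other group. It was called with no expression filter (edgeR adjusted p = 4.28e-21), but not with DESeq2 (adjusted p = 0.756) or limma-voom (0.701).

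Markers of several immune cells and of fibroblasts were also highest in WT replicate 2. For macrophage and dendritic cell markers, 13 of 17 passed the filter, 12 of those were below 0, and the summed level was 177.6 to 242.7 CPM in WT and 158.7 to 175.0 CPM in the libraries labelled Lpar3-/-. C1qa, a complement subunit made by macrophages, had 16.2 ± 2.67 and 11.1 ± 0.359 CPM (edgeR adjusted p = 0.138). The mean deviation of these markers was 0.66 in WT replicate 2 and -0.36 in Lpar3-/- replicate 1.

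T cell markers had 4 of 12 tested and summed to 6.49 to 14.2 CPM in WT and 4.90 to 7.17 CPM in the other group. B and plasma cell markers had 5 of 10 tested and summed to 13.9 to 52.1 CPM in WT and 12.9 to 15.1 CPM in the other group, with Jchain at 29, 242 and 93 counts in WT and 33, 25 and 12 in the other group. Fibroblast markers had 8 of 8 tested and summed to 184.4 to 337.2 CPM and 206.5 to 222.1 CPM. In all of these lists WT replicate 2 was the highest library by sum. Markers of lymph node or spleen stroma, with 1 of 6 tested, went the other way at very low levels. They summed to 2.09, 1.30 and 2.36 CPM in WT replicates 1, 2 and 3, with replicate 2 the lowest library. In Lpar3-/- replicates 1, 2 and 3 the sums were 2.62, 1.64 and 2.43 CPM.

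Natural killer markers had 0 of 10 tested, with Klra4 and Klra8 at 0 in every library. They summed to 3.05, 4.56 and 2.06 CPM in WT replicates 1, 2 and 3. In Lpar3-/- replicates 1, 2 and 3 the sums were 0.854, 1.26 and 1.62 CPM. Every WT library was thus above, as in 7.12% of single genes tested, but the largest count of any marker was 16 (Gzmb). Neutrophil markers had 3 of 10 tested, with Elane and Mpo at 0, and summed to 3.05 to 6.33 CPM and 2.68 to 2.77 CPM. Plasmacytoid dendritic cells, known as strong interferon producers, had 4 of 7 markers tested, summing to 4.74 to 6.27 and 4.39 to 6.47 CPM. Red cell markers, 6 of 7 tested, summed to 385.8 to 653.4 and 364.8 to 615.3 CPM, with the lowest library of each group being WT replicate 3 and Lpar3-/- replicate 1. Endothelial and proximal tubule markers deviated by -0.03 and 0.06 in WT replicate 2 and by -0.09 and 0.06 in Lpar3-/- replicate 1. The part of any of these cells in the interferon-stimulated gene values was not tested, and in whole kidney fewer cells of a type and less RNA per cell cannot be told apart.

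**Figure D5:**
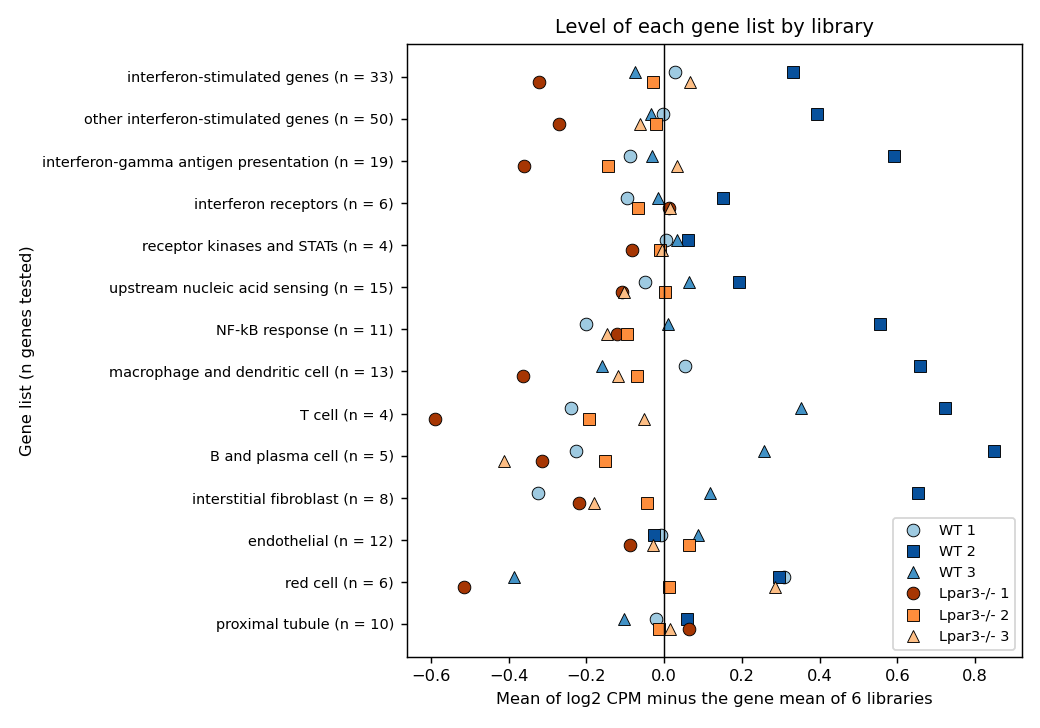
Mean deviation of log2 CPM from the gene mean (x axis) in each of the 6 libraries (points) for the interferon-stimulated genes and for other pathway and cell type lists (rows). WT replicate 2 is at 0.33 for the members, 0.59 for antigen presentation and 0.66 for macrophage and dendritic cell markers, while the endothelial and proximal tubule points of that library lie at -0.03 and 0.06.

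Genomic position was examined for the 4 members on chromosome 3, which also holds Lpar3. Gbp2, Gbp3 and Gbp7 lie 3.58, 3.65 and 3.67 Mb from Lpar3 and Ifi44 lies 5.44 Mb away. Ifi44 had 9.99, 11.1 and 9.13 CPM in WT and 9.28, 9.95 and 11.3 CPM in the libraries labelled Lpar3-/-, with complete overlap. Of 50 genes tested within 6 Mb of Lpar3, 28 were below 0, where 51.1% of all genes were, and the median was -0.01. Of these 50, 1 was called, against 57 of all 15225 genes (0.374%). On chromosome 5 the guanylate-binding genes were below 0 in 5 of 5 genes (median -0.32), beside 5 of 5 (median -0.52) on chromosome 3. WT replicate 2 was the highest library by sum in both clusters, at 33.1 CPM on chromosome 5 and 61.6 CPM on chromosome 3. Whether nearness to Lpar3 had a part in the chromosome 3 values was not tested. Elsewhere, 7 members lie on chromosome 11, 6 on chromosome 16 and 3 on chromosome 19.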

How the data were processed

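The tools named in the submitters' processing notes were featureCounts 1.5.0-p3, HISAT2 2.0.5 and DESeq2 1.20.0, with the build GRCm38, and per the labels' protocols libraries were made from poly-T selected RNA with random hexamers. The authors deposited raw counts per gene and, in another table, FPKM values, which are counts scaled for gene length and depth. Whether counting used strand, which annotation release it used and how it handled reads matching more than 1 gene was not given in the sources used here. The 377 rows with no gene name (0.259% to 0.362% of a library's counts) were left out. The members and all gene lists were chosen with earlier results of these data known, so counts over them are descriptions.

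Tests used edgeR 4.0.16 in R 4.3.3: default expression filter, TMM scaling, quasi-likelihood F-test on all 6 libraries without covariates, Benjamini-Hochberg adjustment over 15225 genes, and calls at an adjusted p below 0.05. The scripts were tested on simulated data. In simulations that kept each gene's own spread, the share of false edgeR calls was above the 0.05 aimed for. The calls over all genes may therefore hold more false ones than their adjusted p says. CPM use TMM-scaled totals, and log2 CPM add a prior count of 2. Common dispersion was a coefficient of variation of 10.5%. Values per library are given for members at an unadjusted p below 0.05, the 8 tested ones with the widest range (Mx1, untested, is given in counts), the 4 most abundant and those on the chromosome of Lpar3. In other lists up to 4 genes with the lowest p could be named, besides the receptors, and 1 further gene of the pathway is not reported here. Jchain and C1qa, and which of the other genes to give by library, were chosen after their values were seen. Alternatives were DESeq2 1.42.0, limma 3.58.1 (voom, and log2 of FPKM plus 1 or 0.1), other scaling and filters, a replicate block and leaving out libraries. Coordinates are GRCm38.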

Additional observations from a re-analysis of the deposited data

How the results depend on the processing

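The median log2 fold change of the interferon-stimulated genes was below 0 in every other fit and from -0.28 to -0.05 when 1 library was left out, and became 0.0496 without WT replicate 2 and Lpar3-/- replicate 1 together, an alternative added after the data were seen. The number of members called was 0 except for 3 with no expression filter, and 0 to 0 when 1 library was left out. At an unadjusted p below 0.05 there were 8 members with no filter, 2 with limma on log2(FPKM + 1), 2 with log2(FPKM + 0.1), 1 to 9 when 1 library was left out (1 without Lpar3-/- replicate 1, 2 without WT replicate 2, 3 without Lpar3-/- replicate 2, 9 without WT replicate 1), and 3 without both. Calls over all genes were 179 with DESeq2, 520 with no filter, 9 with log2(FPKM + 1), 13 with log2(FPKM + 0.1), 12 to 149 when 1 library was left out (149 without WT replicate 1, 26 without Lpar3-/- replicate 2, 12 without Lpar3-/- replicate 1 and 12 without Lpar3-/- replicate 3) and 35 without both. Same-numbered libraries correlated at 0.003, 0.005 and 0.051 after removal of group means, the last being the highest of any WT and Lpar3-/- pair. WT replicate 2 and Lpar3-/- replicate 1 correlated best with each other (0.04), and the other libraries with their own number. Values so near 0 from so few libraries cannot tell whether same-numbered libraries belong together, and the labels do not say. With the replicate block, 0 members and 80 genes were called, 6 members had an unadjusted p below 0.05 and the median was -0.20. Over 34 named genes, 479 of 509 values kept direction and side of the threshold, 19 gained a call and 11 changed sign; none was called in the first place, so none could lose a call. Their log2 fold changes when 1 library was left out ran from -0.869 to -0.1561 for Iigp1 (0.0875 without both), -0.6157 to 0.1669 for Zbp1 (0.2387 without both), -0.625 to 0.0232 for Igtp (0.1815 without both), -0.2901 to -0.0193 for Ddx58 (0.0051 without both), -0.1029 to 0.025 for Irf9 (0.0873 without both) and -0.0631 to 0.0911 for Ifi44 (0.1543 without both). Signs turned without WT replicate 2 (Zbp1, Irf9), without Lpar3-/- replicate 1 (Igtp, Irf9), without WT replicate 3 or Lpar3-/- replicate 3 (Ifi44) and without both (all but Ifi44). Of Ifi27l2a, the adjusted p was 0.0140 without WT replicate 3 and 0.0491 with the block. The cause of these changes was not tested. Depth limits the members with few counts, Mx1, Zbp1, Mx2 and Oas2 among them.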
